A study of Mus musculus with 4 samples.

Results

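The DCAF genes (DDB1 and CUL4 associated factors) encode the parts of the CRL4 ubiquitin ligase that recognise its substrates, and 10 of the 23235 genes in the table of mouse oocyte RNA were taken here by their symbols: Dcaf13, Dcaf4, Dcaf5, Dcaf6, Dcaf7, Dcaf8, Dcaf10, Dcaf11, Dcaf12 and Dcaf17. In CRL4 the scaffold protein CUL4A or CUL4B holds the small RING protein RBX1, which brings in the ubiquitin-charged enzyme, and the adaptor DDB1, which holds 1 receptor at a time. Most receptors are built around a propeller of WD40 repeats that carries the contact to DDB1, and exchange of the receptor changes which proteins receive ubiquitin. In oocytes CRL4 is known for keeping the dormant follicle pool alive. DCAF13 has a further role as a nucleolar protein of the small subunit processome, which cuts and folds the precursor of 18S ribosomal RNA, and its yeast counterpart is Sof1.

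The study measured polyadenylated RNA in 4 groups with 1 library of 10 oocytes each. All mice carried Dcaf13fl/fl alleles, in which recombination sites flank part of the gene, on a C57B6 background. Fully grown deletion oocytes came from Dcaf13fl/fl;Gdf9-Cre females, and fully grown control oocytes from Dcaf13fl/fl females without Cre. Both fully grown groups were about 23 days old and had received 5 IU of PMSG, a gonadotropin that drives follicle growth, 48 h earlier. Growing deletion and growing control oocytes had the same 2 genotypes, came from mice of about 14 days and are given no PMSG in the labels. The Gdf9 promoter drives Cre in the oocyte itself from early follicle growth on, so the gene is deleted in oocytes and not in the cells around them. There was no control that carried Cre without floxed alleles, and the number of mice per library is not given in the sources used here.

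Values are FPKM, which count fragments per unit of transcript length and per mapped fragment, so genes of different length can be set side by side, and a change is a difference in log2(FPKM + 1) between 2 libraries. With 1 library per group there is no replicate error, no test was run and no p-value is given. Each difference below is between 2 libraries and has no replicate check. A gene counted as measured in a comparison when either of its 2 libraries reached 5 FPKM, and as past the size rule when its change was also at least 1 in either direction. FPKM is a share of each library, so less RNA of a gene per oocyte and more RNA of other genes cannot be told apart. Genes at 1 FPKM or more numbered 10469 to 11048 per library, and relative sequencing depth read from low genes lay between 1 and 1.11. The growing control library was the reference, set at 1, and the other estimates rested on 38 to 76 genes each. Only ratios near 1 were searched, so a larger difference in depth could not have shown. None of the 15 oocyte markers was under 1 FPKM in any library, with summed levels of 24205 to 29258 FPKM. The 12 granulosa and cumulus markers summed to 30.0 FPKM in fully grown deletion and 28.0 in fully grown control oocytes, and to 17.8 in growing deletion and 35.4 in growing control oocytes. Their medians were 0.72 FPKM in fully grown deletion and 0.28 in fully grown control oocytes, and 0.32 in growing deletion and 0.57 in growing control oocytes. Of their defining genes, Foxl2 was listed at 0 in fully grown control oocytes and Amh in both fully grown libraries. Cyp19a1 was the highest of the 12, at 16.8 FPKM in fully grown deletion and 19.0 in fully grown control oocytes. It stood at 7.75 FPKM in growing deletion and 17.7 in growing control oocytes, a change of -1.10, past the size rule. Inha, at 2.16 FPKM in growing deletion and 6.53 in growing control oocytes (-1.25), was past the rule too. In fully grown oocytes Inha lay the other way, at 4.99 FPKM in deletion and 2.40 in control, under the minimum. The 9 theca and stroma markers summed to 1.18 to 1.496 FPKM, and the 6 blood and immune markers to 13.4 to 20.2 FPKM, most of it Pecam1, with the globin genes Hbb-b1 and Hba-a1 listed at 0 throughout. The part of these other cells in the results was not tested.

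The 10 DCAF genes were all at 1 FPKM or more in every library and spanned a wide range of levels with a nearly fixed order. Dcaf13 was the most abundant receptor in both control libraries and the third in both deletion libraries, behind Dcaf8 and Dcaf12. Dcaf10 was lowest and Dcaf5 next to lowest in all 4. In fully grown control oocytes Dcaf13 stood at 160.2 FPKM, 2.38 times Dcaf8 and 13.0 times the median of the other 9, and in growing control oocytes at 96.1 FPKM, 1.24 times Dcaf8 and 7.04 times that median. The 3 most abundant members, Dcaf13, Dcaf8 and Dcaf12, held 70.7% of the summed FPKM of the 10 in fully grown deletion and 77.4% in fully grown control oocytes. Their share was 62.7% in growing deletion and 69.8% in growing control oocytes. Dcaf11 stood above Dcaf7 in growing control oocytes and below it in the other libraries. The order of Dcaf6, Dcaf17 and Dcaf4, all between 7.29 and 17.0 FPKM, also differed between libraries, and whether these neighbours differ cannot be judged without replicates. In these libraries the genes at or above 1 FPKM had Dcaf13 at percentile 83.4 in fully grown deletion and 92.5 in fully grown control oocytes, and at 76.4 in growing deletion and 88.9 in growing control oocytes.

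**Figure D1:**
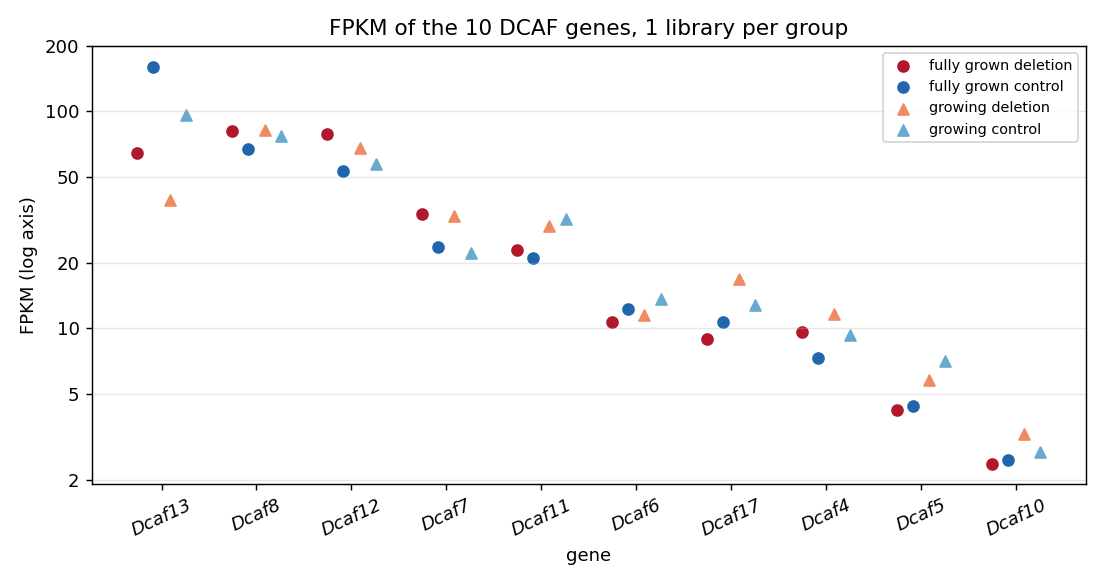
FPKM on a log axis of the 10 DCAF genes, ordered by their level in fully grown control oocytes, with 1 point per library and no error bars since each group is 1 library. Dcaf13 spans 38.9 to 160.2 FPKM over the 4 libraries, while Dcaf8 stays between 67.2 and 81.8 FPKM.

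Dcaf13, the deleted gene (ENSMUST00000022909 is its coding transcript in GENCODE, with 11 exons and 445 codons), lies on chromosome 15, plus strand, at chr15:38944420-38978401 in mm9. It stood at 64.0 FPKM in fully grown deletion against 160.2 in fully grown control oocytes, and at 38.9 in growing deletion against 96.1 in growing control oocytes. Both deletion libraries thus lay below both control libraries. The changes were -1.31 in fully grown and -1.28 in growing oocytes, which is 39.95% and 40.5% of the control level. Across all measured genes 43 of 7413 lay at least as low in the fully grown comparison and 84 of 8010 in the growing one, Dcaf13 included. The change differed between the stages by -0.03, where the 5th to 95th percentile of that difference over 7188 genes measured at both stages ran from -0.64 to 0.66. An FPKM of the whole gene counts fragments from any exon, so it checks the label only as far as the whole transcript is lower, and the residual reads do not show whether the floxed part is missing.

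The gene nearest to Dcaf13 served as a local comparison, chosen by position after the values were seen. Slc25a32, which encodes a mitochondrial folate and flavin carrier, lies on the opposite strand with 157 bases between the annotated starts of the pair. It stood at 12.7 FPKM in fully grown deletion and 12.0 in fully grown control oocytes, and at 8.75 in growing deletion and 8.77 in growing control oocytes. Its changes were 0.07 and -0.003, so the lower level of Dcaf13 in the deletion libraries was not shared by the gene that starts beside it.

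The family as a whole was lower in the deletion libraries by less than Dcaf13 alone. The summed FPKM of the 10 genes was 316 in fully grown deletion and 363 in fully grown control oocytes, and 300.1 in growing deletion and 330.0 in growing control oocytes. Without Dcaf13 the order was the other way round. The other 9 receptors summed to 252 FPKM in fully grown deletion against 203 in fully grown control oocytes, and to 261 in growing deletion against 234 in growing control oocytes, ratios of 1.24 and 1.12. The share of Dcaf13 in the summed receptor FPKM was 20.3% in fully grown deletion and 44.2% in fully grown control oocytes, and 12.9% in growing deletion and 29.1% in growing control oocytes. Dcaf13 was lower by 96.2 FPKM in the fully grown and 57.2 FPKM in the growing comparison, while the others were higher by 49.4 and 27.4 FPKM in sum. Abundant genes weigh most in such sums, and Dcaf5 and Dcaf6 were below control at both stages. The summed FPKM of all genes was also higher in the deletion libraries. It was 678437 against 669104 in fully grown and 665945 against 649397 in growing oocytes.

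**Figure D2:**
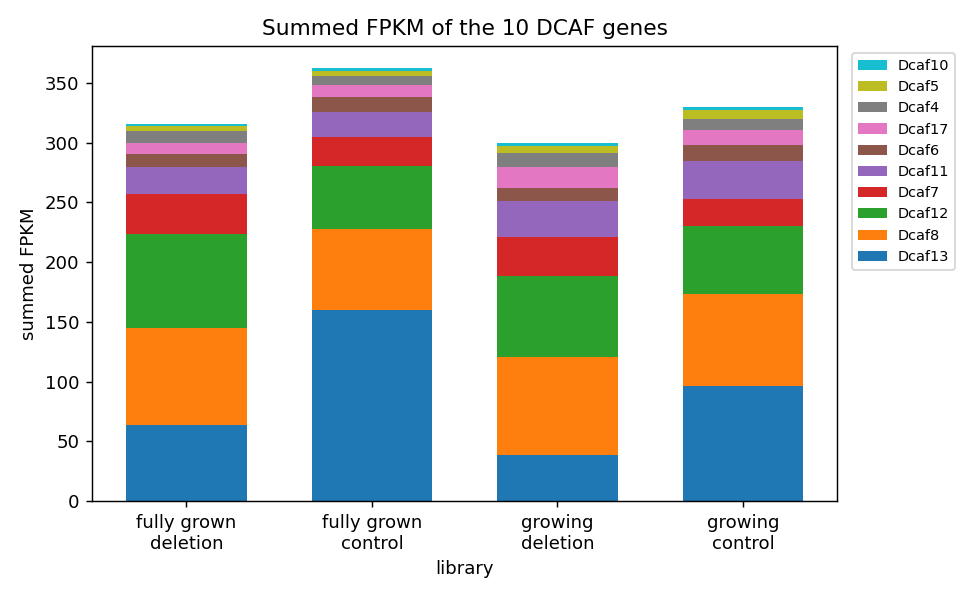
Summed FPKM of the 10 DCAF genes in each of the 4 libraries, with 1 coloured block per gene and bars that start at 0. The block of Dcaf13 at the base makes up 20.3% of the bar in fully grown deletion and 44.2% in fully grown control oocytes, and 12.9% in growing deletion and 29.1% in growing control oocytes.

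The comparison of deletion with control oocytes asks whether other receptors move when Dcaf13 is deleted. Dcaf13 was the only member past the size rule, 1 of 8 measured members in fully grown oocytes, where 2.17% of all 7413 measured genes were past it, and 1 of 9 in growing oocytes, where 5.13% of 8010 were. It is the gene the study deleted, so this count says nothing of the family. Of the other members measured, 5 of 7 lay above control in fully grown oocytes, beside 55.0% of all measured genes, and 5 of 8 in growing oocytes, beside 58.5%. Their median changes were 0.27 and 0.16, against 0.04 and 0.08 over all measured genes. Dcaf5 at 4.20 and 4.38 FPKM and Dcaf10 at 2.38 and 2.49 FPKM in fully grown deletion and control oocytes were under the minimum, as was Dcaf10 at 3.26 and 2.71 FPKM in growing deletion and control oocytes.

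Among the other 9 members Dcaf12 had the highest change in fully grown and Dcaf7 in growing oocytes. Dcaf12, which recognises proteins that end in acidic residues, stood at 78.3 FPKM in fully grown deletion and 53.3 in fully grown control oocytes, and at 67.7 in growing deletion and 57.0 in growing control oocytes. Its changes were 0.55 in fully grown oocytes, at percentile 92.2 of all measured genes, and 0.25 in growing oocytes, at percentile 67.4. Both of its deletion values lay above both of its control values. Dcaf7, a scaffold that binds kinases of the DYRK and HIPK families, stood at 33.7 FPKM in fully grown deletion and 23.7 in fully grown control oocytes, and at 32.9 in growing deletion and 22.3 in growing control oocytes. This gave changes of 0.49 (percentile 90.4) and 0.54 (percentile 88.2), again with both deletion values above both control values. Both genes stayed within the 5th to 95th percentile of all measured genes, which ran from -0.58 to 0.63 in the fully grown and from -0.70 to 0.78 in the growing comparison. The share of all genes whose deletion values both lie above their control values is not given here.

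Dcaf4 and Dcaf8 were the other members above control at both stages. Dcaf4 stood at 9.68 FPKM in fully grown deletion and 7.29 in fully grown control oocytes, and at 11.7 in growing deletion and 9.31 in growing control oocytes, changes of 0.36 and 0.30. Dcaf8, whose human counterpart is mutated in a form of giant axonal neuropathy, stood at 81.0 FPKM in fully grown deletion and 67.2 in fully grown control oocytes, and at 81.8 in growing deletion and 77.3 in growing control oocytes. Its changes were 0.27 and 0.08, and in growing oocytes this equalled the median of all measured genes to 2 decimals. For both genes each deletion value lay above each control value, and the share of all genes with this order is not given here. Of the 8 members measured in both comparisons, 4 lay above control at both stages, beside 39.2% of all 7188 genes measured in both.

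Members below control at both stages besides Dcaf13 were Dcaf6 and Dcaf5. Of the 8 members measured in both comparisons, which leave out Dcaf5, 2 lay below control at both stages, Dcaf13 included, beside 27.8% of the 7188 genes. Dcaf6, a coactivator of nuclear hormone receptors, stood at 10.7 FPKM in fully grown deletion and 12.4 in fully grown control oocytes, and at 11.6 in growing deletion and 13.6 in growing control oocytes, changes of -0.19 and -0.22. Each of its deletion values was below each control value, and the share of all genes with this order is not given here. Dcaf5, a receptor for methylated proteins, stood at 4.20 FPKM in fully grown deletion and 4.38 in fully grown control oocytes, and at 5.82 in growing deletion and 7.11 in growing control oocytes. Its changes were -0.05 and -0.25, and its growing deletion value lay above its fully grown control value.

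The remaining members lay on opposite sides of control at the 2 stages. Dcaf17, whose loss makes male mice infertile, stood at 8.96 FPKM in fully grown deletion and 10.7 in fully grown control oocytes, but at 17.0 in growing deletion and 12.8 in growing control oocytes. The changes of -0.24 and 0.38 differed by -0.61 between fully grown and growing oocytes, at percentile 5.70 of the 7188 genes. Dcaf11, a receptor for the stress response factor NRF2, stood at 23.0 FPKM in fully grown deletion and 21.1 in fully grown control oocytes, and at 29.7 in growing deletion and 31.8 in growing control oocytes, changes of 0.12 and -0.10. Dcaf10 had changes of -0.05 and 0.20 at the low levels given above. Whether these differences between stages exceed library error could not be tested.

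**Figure D3:**
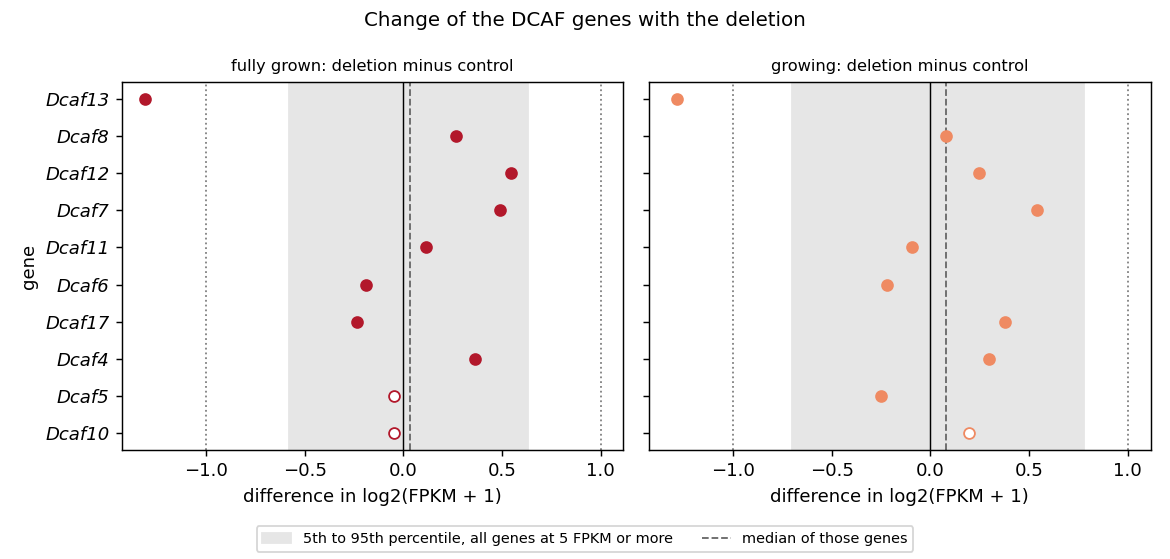
Difference in log2(FPKM + 1), deletion minus control, of each DCAF gene in fully grown (left) and growing (right) oocytes. Grey bands hold the 5th to 95th percentile of all measured genes, dotted lines mark the size of 1, and open circles are members under 5 FPKM in both libraries. Dcaf13 lies at -1.31 and -1.28, outside the band, and the other members lie inside it.

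For the members above control at both stages, a choice made from these values, the promoter letters are shown, so that what stands before their start sites can be compared. The sequences are the 250 bases before a RefSeq start in GRCm38.p6, 5′ to 3′ on the strand of the gene, and capitals mark GC boxes (GGGCGG) and CCAAT boxes (CCAAT) found on either strand. They lie at chr4:41314902-41315151, minus strand (Dcaf12), chr11:106036622-106036871, plus strand (Dcaf7), chr12:83520216-83520465, plus strand (Dcaf4, the first of its starts in the table) and chr1:172147765-172148014, plus strand (Dcaf8).
Dcaf12: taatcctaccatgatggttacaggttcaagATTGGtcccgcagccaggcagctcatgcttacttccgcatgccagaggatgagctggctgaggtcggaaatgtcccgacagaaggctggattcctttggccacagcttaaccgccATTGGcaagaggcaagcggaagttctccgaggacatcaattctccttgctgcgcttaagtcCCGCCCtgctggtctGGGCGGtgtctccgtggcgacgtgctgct
Dcaf7: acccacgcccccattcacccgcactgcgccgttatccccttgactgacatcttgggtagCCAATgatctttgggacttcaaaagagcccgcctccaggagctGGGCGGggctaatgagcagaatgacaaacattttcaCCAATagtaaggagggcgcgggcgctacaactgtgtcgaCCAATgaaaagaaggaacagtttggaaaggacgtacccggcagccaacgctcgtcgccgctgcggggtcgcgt
Dcaf4: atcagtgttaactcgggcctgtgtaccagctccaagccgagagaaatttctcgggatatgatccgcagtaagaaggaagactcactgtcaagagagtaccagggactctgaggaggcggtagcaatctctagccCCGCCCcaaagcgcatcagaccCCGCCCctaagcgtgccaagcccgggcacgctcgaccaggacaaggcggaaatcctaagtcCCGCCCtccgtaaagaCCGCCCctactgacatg
Dcaf8: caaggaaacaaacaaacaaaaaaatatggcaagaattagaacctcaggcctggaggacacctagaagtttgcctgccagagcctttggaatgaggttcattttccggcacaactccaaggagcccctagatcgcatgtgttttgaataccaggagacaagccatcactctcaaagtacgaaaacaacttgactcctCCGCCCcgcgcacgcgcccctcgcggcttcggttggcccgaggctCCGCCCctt

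Dcaf7 held 3 CCAAT boxes and 1 GC box, and Dcaf12 held 2 of each. Dcaf4 held 4 GC boxes at the start shown and Dcaf8 held 2, and neither held a CCAAT box in these 250 bases. The other start of Dcaf4, not shown, held no GC box and no CCAAT box. The RefSeq table held promoters for 9 of the 10 members, at 11 starts, and none for Dcaf13. Counted by start, a GC box was found at 6 of the 11, while 32.7% of all 32851 starts in the table held one, and a CCAAT box at 4 of the 11, against 33.8%. TATAA was found at none of the 11, against 22.8% of all starts, and the E-box letters CANNTG at 8 of the 11, against 66.2%; the motifs were searched on both strands, and matches of different motifs did not exclude one another. The members' promoters held 5 to 35 CpG dinucleotides with a median of 15, against a median of 6 over the table. The first 25 bases after the start were found in a GENCODE transcript of the same gene for 9 of the 11 starts, and not for those of Dcaf12 and Dcaf8. Such matches are letters in a window and were not set against binding data.

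Between stages Dcaf13 had the highest value relative to growing oocytes of all members, in both genotypes. It stood at 64.0 FPKM in fully grown against 38.9 in growing deletion oocytes, and at 160.2 in fully grown against 96.1 in growing control oocytes. These are ratios of 1.65 and 1.67 and changes of 0.71 and 0.73, at percentile 94.5 of 7957 measured genes in deletion and 97.8 of 7661 in control oocytes. Stage, age and PMSG cannot be told apart in these ratios. No member was past the size rule between stages, where 11.4% of measured genes were past it in deletion and 4.18% in control oocytes. Of the other 8 members measured, 2 lay above growing oocytes in the deletion, beside 44.1% of all measured genes, and 1 in controls, beside 43.9%. Their median changes were -0.18 in deletion and -0.22 in control oocytes, against -0.07 and -0.06 over all measured genes. Growth in deletion and growth in control oocytes use the same libraries as the deletion comparisons above, so neither is independent of them. The similar changes of Dcaf13 between stages in both genotypes restate its similar deletion changes at both stages.

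Dcaf17 had the widest stage difference in the deletion, at 8.96 FPKM in fully grown against 17.0 in growing deletion oocytes, a change of -0.85, while in controls it stood at 10.7 in fully grown and 12.8 in growing oocytes, a change of -0.24. With the trend of GC content and transcript length removed, its change in deletion oocytes was -1.02, past the size of 1. In controls the lowest changes were those of Dcaf5, at 4.38 FPKM in fully grown against 7.11 in growing oocytes (-0.59), and Dcaf11, at 21.1 in fully grown against 31.8 FPKM in growing oocytes (-0.57). In the deletion Dcaf5 had a change of -0.39 and Dcaf11 of -0.35. Dcaf7 lay at 0.03 in deletion and 0.08 in control oocytes between stages, and Dcaf6 at -0.11 and -0.13, the narrowest stage differences shared by both genotypes. Dcaf12 lay at 0.21 in deletion and -0.09 in control oocytes, Dcaf4 at -0.25 and -0.31, and Dcaf10, under the minimum, at -0.33 and -0.09. Dcaf8 was at -0.01 in deletion oocytes and -0.20 in control oocytes, and the value in deletion oocytes was 0.01 with median-ratio rescaling and 0.03 without the GC and length trend.

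**Figure D4:**
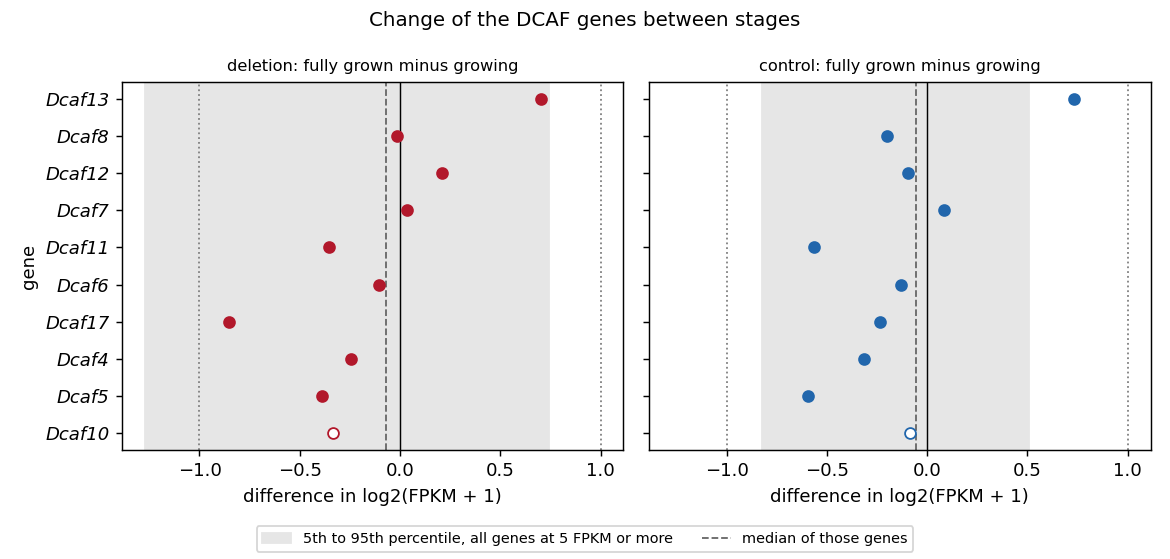
Difference in log2(FPKM + 1), fully grown minus growing, of each DCAF gene in deletion (left) and control (right) oocytes, with bands, dotted lines and open circles as for the deletion changes. Dcaf13 lies at 0.71 and 0.73, and Dcaf17 in the deletion is the lowest point at -0.85.

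Over all 4 libraries the members differed in how far their levels ranged. Dcaf13 ranged over 4.12-fold, at percentile 96.8 of the log2 ranges of the 8235 genes at 5 FPKM or more in any library. Dcaf8 ranged over 1.22-fold, at percentile 14.4, and Dcaf6 over 1.27-fold, at percentile 19.8. Dcaf10 ranged over 1.37-fold. Dcaf17 came after Dcaf13 with 1.89-fold, and the others lay between 1.47-fold (Dcaf12) and 1.69-fold (Dcaf5). In transcript GC content the members ran from 42.3% (Dcaf17) to 54.0% (Dcaf4), with Dcaf13 at 44.7%, which is percentile 22.9 of the genes at 5 FPKM or more. Across all measured genes the deletion change went with GC content (Spearman's rho 0.41 in fully grown and 0.37 in growing oocytes, across genes, which are not independent replicates). With the trend of GC content and length removed Dcaf13 stood at -1.15 and -1.19, Dcaf7 at 0.41 and 0.54, and Dcaf12 at 0.53 and 0.25 in fully grown and growing oocytes. The members' coding parts ran from 342 codons in Dcaf7 to 946 in Dcaf5, in 7 to 19 exons. In the file's annotation no other gene overlapped a member, apart from Mir1843 and Scarna3b inside Dcaf5.

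The genes whose profile over the 4 libraries was closest to that of Dcaf13 were Fam84b, Igsf3, Vdac2, Pde6d and Serpinb12. Likeness was the Euclidean distance between log2(FPKM + 1) profiles, each centred on its own mean, over 4118 other genes at 20 FPKM or more in some library. The distances were 0.36, 0.44, 0.45, 0.49 and 0.52, against a median of 1.57 over all genes compared. Vdac2, a channel of the outer mitochondrial membrane, stood at 69.4 FPKM in fully grown deletion and 116.8 in fully grown control oocytes, and at 40.9 in growing deletion and 92.8 in growing control oocytes. Pde6d, a carrier of prenylated proteins, stood at 270 FPKM in fully grown deletion and 539 in fully grown control oocytes, and at 211 in growing deletion and 455 in growing control oocytes. Both followed the order of Dcaf13 over the libraries, fully grown control highest and growing deletion lowest. They were chosen for a profile close to that of Dcaf13, so this shared order follows largely from the choice. The likeness is a description of 4 single libraries, and the other members at that level lay farther off than the median gene, from Dcaf8 at 1.69 to Dcaf7 at 1.93.

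Receptors of CRL4 that carry other names or stood outside the 10 had no gene past the size rule with the deletion. Of 14 on the list, 11 were measured in fully grown and 10 in growing oocytes. In fully grown oocytes 5 lay above and 6 below control with a median of -0.01, and in growing oocytes 6 above and 4 below with a median of 0.13. Wdtc1, the most abundant of them by the mean over the 4 libraries though not in each of them, stood at 34.9 FPKM in fully grown deletion and 19.1 in fully grown control oocytes, and at 32.5 in growing deletion and 39.0 in growing control oocytes. Ddb2, the sensor of ultraviolet damage in DNA, stood at 31.4 FPKM in fully grown deletion and 33.9 in fully grown control oocytes, and at 30.8 in growing deletion and 25.8 in growing control oocytes. Neither kept its side of control at both stages. The changes of Wdtc1 (0.84) and of Dcaf15 (0.83, named after its values were seen) in fully grown oocytes were above that of any of the 10 members. Crbn, the receptor that thalidomide binds, was past the rule between stages in the deletion, at 12.4 FPKM in fully grown against 26.3 in growing deletion oocytes (-1.02), and stood at 19.8 in fully grown and 22.9 in growing control oocytes (-0.20). It missed the rule with median-ratio rescaling (-0.9996), with a pseudocount of 5 (-0.84) and with the deposited pairing (-0.90). Dcaf12l1 and Dcaf12l2, close relatives of Dcaf12, were at 0.37 FPKM or less in every library.

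The ligase core was measured for 8 of 9 genes, with none past the rule with the deletion, 6 of 8 above control in fully grown and 4 of 8 in growing oocytes, and medians of 0.07 and 0.09. Nedd8, the modifier that activates cullins, stood at 566 FPKM in fully grown deletion and 499 in fully grown control oocytes, and at 593 in growing deletion and 490.2 in growing control oocytes. Rbx1 stood at 239.7 FPKM in fully grown deletion and 269.9 in fully grown control oocytes, and at 216 in growing deletion and 229.7 in growing control oocytes. Both were above the most abundant receptor in their libraries. Cul4a was past the rule between stages in the deletion, at 5.53 FPKM in fully grown against 14.2 in growing deletion oocytes (-1.22), and stood at 4.95 in fully grown and 9.25 in growing control oocytes (-0.78). It missed the rule in the deletion with a pseudocount of 5 (-0.87), and the row that carries its symbol in the deposited pairing had the opposite sign (0.22). For Crbn and Cul4a alike the difference between genotypes was not tested.

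Of 6 genes for reported substrates of DCAF13 or of DCAF1 (Vprbp in the table), 3 were measured and none was past the rule in any comparison. Their median changes with the deletion were 0.02 in fully grown and -0.11 in growing oocytes. Tet3, the oxidase of 5-methylcytosine in oocytes and zygotes, stood at 79.1 FPKM in fully grown deletion and 78.3 in fully grown control oocytes, and at 70.3 in growing deletion and 75.8 in growing control oocytes. Ppp2r1a, the scaffold subunit of protein phosphatase PP2A, stood at 74.97 FPKM in fully grown deletion and 54.5 in fully grown control oocytes, and at 78.3 in growing deletion and 66.1 in growing control oocytes. Suv39h1, the gene of a histone methyltransferase reported as a substrate of DCAF13 itself, was named after its values were seen. It stood at 19.4 FPKM in fully grown deletion and 29.6 in fully grown control oocytes. In growing oocytes it stood at 25.2 FPKM in deletion and 27.8 in control. Its changes were -0.585 in fully grown oocytes, just under the 5th percentile of all measured genes (-0.580), and -0.14 in growing oocytes. These are RNA levels, and a ligase receptor acts on protein.

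The small subunit processome, in which the yeast counterpart of DCAF13 works, had 38 of 43 genes measured in fully grown and 39 in growing oocytes, Dcaf13 included. With the deletion 30 of the 38 lay above control in fully grown oocytes, beside the 55.0% given above, and 30 of the 39 in growing oocytes, beside the 58.5%. Without Dcaf13 the medians were 0.20 and 0.19, against 0.04 and 0.08 over all measured genes. The deletion change went with GC content across all measured genes, and no values without that trend are given for this list. The part of GC content in these counts and medians was not tested. Dcaf13 was the only member past the size rule in either comparison. Emg1, a methyltransferase for 18S ribosomal RNA, stood at 512 FPKM in fully grown deletion and 534 in fully grown control oocytes, and at 385 in growing deletion and 414 in growing control oocytes. Nhp2l1, which binds the U3 small nucleolar RNA, stood at 256 FPKM in fully grown deletion and 260.4 in fully grown control oocytes, and at 284 in growing deletion and 218 in growing control oocytes. These most abundant genes of the list thus lay below control in 3 of their 4 comparisons.

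**Figure D5:**
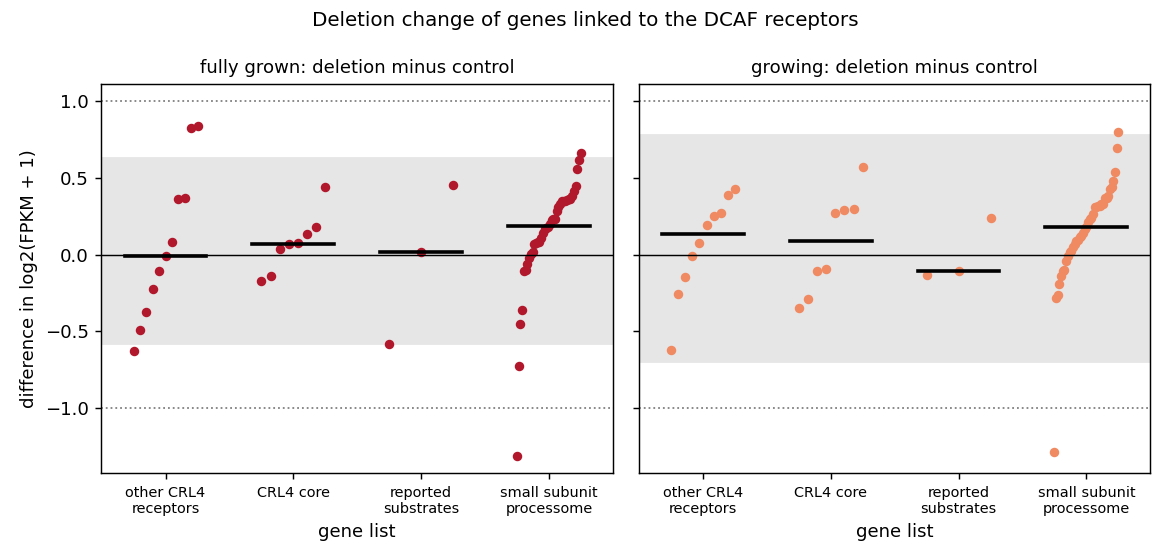
Difference in log2(FPKM + 1), deletion minus control, of the measured genes of 4 lists in fully grown (left) and growing (right) oocytes, with 1 point per gene, black bars at the list medians, grey bands for the 5th to 95th percentile of all measured genes and dotted lines at the size of 1. The lowest point of the processome is Dcaf13 at -1.31 and -1.28, and no other gene of these lists lies beyond the dotted lines.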

How the data were processed

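Polyadenylated RNA of 10 oocytes per library was amplified by a Smart-seq2 protocol and cut with Tn5 transposase, which marks no strand, per the labels' protocols. The authors deposited FPKM values, 1 per gene symbol and library. The submitters' processing notes list the build mm9, Cufflinks 2.2.1, TopHat2 2.0.11, CASAVA 1.8 and Bowtie2 2.1.0, with no roles. For settings, gene models and depth, the sources used here give nothing.

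The symbols of the deposited table run in another sort order than its values, so symbols in byte order were paired with the value rows: 19122 of 23235 rows take another symbol. The 15 oocyte markers, averaged over libraries, had a median of 1394 FPKM in byte order and 10.6 FPKM as deposited. This pairing is an inference. The rows of the 10 DCAF genes are the same under both pairings, as are those of Ddb2, Dcaf15, Dcaf12l1, Dcaf12l2 and Emg1. The values of the other genes named, the genes closest to Dcaf13 and Slc25a32 among them, and of 37 of the 43 processome genes depend on it.

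Changes used a pseudocount of 1, which understates the change of low genes, in Python 3.11.15 with pandas 2.3.3 and code tested on simulated data. Alternatives were pseudocounts of 0.1 and 5, median-ratio rescaling, removal of a cubic trend with GENCODE transcript GC content and length, lower minima and the deposited pairing. The members and gene lists were chosen with earlier results of these data known. All members are named, then the 5 genes closest to Dcaf13. From each gene list other than the cell type markers, genes past the size rule and the 2 most abundant are named, and exceptions are pointed out. Of the markers, Inha and Cyp19a1 were past the rule with the deletion in growing oocytes. Between stages Inha was past it in controls (-1.15), and Cyp19a1 (1.03) and Figla (-1.17) in the deletion. Protein sequences were not analysed here.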

Additional observations from a re-analysis of the deposited data

Results flagged for a closer look

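In Dcaf17, Dcaf10 and Dcaf11 the deletion change had opposite signs at the 2 stages, with 1 library per group, and the difference was not tested. Fully grown minus growing change was -0.61 for Dcaf17, -0.25 for Dcaf10 and 0.21 for Dcaf11, all inside the 5th to 95th percentile of 7188 genes (-0.64 to 0.66).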

How the results depend on the processing

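With 1 library per group, leaving out a library removes the comparison, so none was left out. No paired analysis was possible because each group holds 1 library. Dcaf13 stayed past the size rule with the deletion under every alternative run, from -1.37 to -1.15 in fully grown and from -1.33 to -1.19 in growing oocytes. The deposited pairing keeps the row of every member, so it could not alter their values and is no check on them. Of the 40 member changes, all 40 kept their sign and their side of the rule with pseudocounts of 0.1 and 5. With median-ratio rescaling 39 did so, and 37 without the GC and length trend. The exceptions were Dcaf8 between stages in the deletion, Dcaf17 in the same comparison (-1.02) and Dcaf10 in fully grown oocytes, 0.05 in place of -0.05 without that trend. The stage difference of Dcaf13 was 0.04 in place of -0.03 without it. Counts of all genes past the rule depend on the minimum and pseudocount. In the order fully grown deletion, growing deletion, growth in deletion and growth in controls they were 161, 411, 911 and 320, against 62, 123, 366 and 106 with a pseudocount of 5, and 276, 700, 1456 and 558 with a minimum of 1 FPKM or with none. With a pseudocount of 1, a change of 1 needs at least 1 FPKM in the higher library. The last settings thus could not differ. Of the genes nearest to Dcaf13, Serpinb12 ranked 6 with a pseudocount of 0.1. Members under 5 FPKM are the least precise.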
